A study of Mus musculus with 12 samples.

Results

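The 7 genes described here, Angptl7, Myoc, Aqp1, Mgp, Ltbp2, Cyp1b1 and Timp3, are genes of the eye's drainage tissue or of inherited glaucoma, taken by name from the 32544 entries of a table of counts per gene. All 7 were counted in every library and all 7 passed the filter on low counts that left 15134 genes to test. The counts came from whole eyes of male mice aged 12 weeks. Mice of one genotype carried a retina-specific deletion of Nr3c1, the gene of the glucocorticoid receptor, and were positive for Cre (cKO). Mice of the other genotype were negative for Cre (WT). Which Cre driver was used and which Nr3c1 allele the WT mice carried was not given in the sources used here. All mice lived for 2 weeks under a cycle of 12 h light and 12 h dark and then in constant darkness, and none received a drug. On the 2nd day of darkness eyes were collected at circadian time (CT) 2, 6, 10, 14, 18 and 22, where CT counts hours from the start of the subjective day and CT14, CT18 and CT22 fall in the subjective night. Each of the 12 libraries held equal amounts of RNA from 3 mice of 1 genotype and time, so there was 1 library per genotype and time and no measure of how single mice vary. Only 1 cycle was sampled, so a time is repeated only across the genotypes and a genotype only across the times.

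Aqueous humour made by the ciliary body leaves the eye mainly through the trabecular meshwork, a sieve of matrix-covered cells at the angle between cornea and iris, and through Schlemm's canal behind it. The resistance of that path sets the pressure in the eye, and a raised pressure is the main risk factor for glaucoma. In humans and mice the pressure follows a daily cycle, and glucocorticoids raise both matrix deposition in the meshwork and the level of myocilin. Several of the 7 genes are also used in the cornea, sclera, ciliary body or retina, so that a whole-eye level is a sum over tissues. The drainage tissue lies in the front of the eye, outside the retina that the deletion is labelled for.

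The total count per library ran between 10466253 and 10686868. Nr3c1 had 38.8 to 49.6 CPM (counts scaled to a common library total) in the cKO libraries and 55.4 to 76.0 CPM in the WT libraries. It was lower in cKO at 6 of 6 times, with a log2 difference of -0.52 ± 0.06 (SE; edgeR's quasi-likelihood test, Benjamini-Hochberg adjusted p = 0.00180). Some sample labels call the tissue ciliary body or a ciliary epithelial line, while the protocols say whole eyes. Markers of other tissues were present: the 12 stroma, sclera and keratocyte markers had at least 70 counts each in every library, and the 8 rod markers at least 2505. The WT library of CT18 stood apart. It had the highest mean marker level of the 6 WT libraries for stroma (0.54 on a log2 scale centred on the 12 libraries, against 0.23 for the next), for red blood cells (0.93 against 0.37), for vessels and pericytes (0.29 against 0.06) and for Schwann cells and nerve (0.24 against 0.10). Values that it moves are also given without it. The WT library of CT22 stood apart for the 12 lens markers, with a mean level of -0.81 where the lowest of the other libraries had -0.17. Without it the shared curves of Angptl7, Aqp1 and Timp3 still passed (edgeR adjusted p of 0.000391, 0.000521 and 0.0397). That of Mgp, which passed with all libraries, did not (0.0790).

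Promoter sequences were in RefSeq (build GRCm38.p6) for 6 of the 7 genes, all but Mgp. The 300 bases that run between 250 before and 50 after the RefSeq start are shown for Angptl7, Aqp1, Timp3 and Myoc, because the levels of these 4 genes moved together over the libraries. They are written 5′ to 3′ on the strand of the gene, and capitals mark matches to any of 8 short motifs searched on both strands. The windows are chr4:148500413-148500712 (minus strand) for Angptl7, chr6:55336049-55336348 (plus strand) for Aqp1, chr10:86300162-86300461 (plus strand) for Timp3 and chr1:162638900-162639199 (plus strand) for Myoc. For these 4 genes the RefSeq starts differ from the GENCODE starts given with each gene, and the Aqp1 window ends before the GENCODE start.
Angptl7: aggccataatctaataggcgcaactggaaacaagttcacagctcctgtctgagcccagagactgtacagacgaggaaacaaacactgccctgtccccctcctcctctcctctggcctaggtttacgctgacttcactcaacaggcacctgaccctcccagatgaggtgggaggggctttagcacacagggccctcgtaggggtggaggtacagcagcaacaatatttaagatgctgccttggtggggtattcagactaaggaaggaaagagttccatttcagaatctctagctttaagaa
Aqp1: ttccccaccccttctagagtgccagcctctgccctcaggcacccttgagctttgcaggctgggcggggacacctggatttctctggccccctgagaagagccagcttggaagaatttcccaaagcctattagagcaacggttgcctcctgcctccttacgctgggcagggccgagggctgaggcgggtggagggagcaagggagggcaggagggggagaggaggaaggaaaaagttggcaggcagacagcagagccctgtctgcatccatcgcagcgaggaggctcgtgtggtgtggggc
Timp3: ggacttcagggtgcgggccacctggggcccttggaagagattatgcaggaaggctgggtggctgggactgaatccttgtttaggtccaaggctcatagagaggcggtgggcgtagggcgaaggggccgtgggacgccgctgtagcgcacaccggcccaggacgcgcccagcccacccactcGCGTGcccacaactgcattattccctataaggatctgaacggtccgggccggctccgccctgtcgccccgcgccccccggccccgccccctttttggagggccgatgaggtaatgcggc
Myoc: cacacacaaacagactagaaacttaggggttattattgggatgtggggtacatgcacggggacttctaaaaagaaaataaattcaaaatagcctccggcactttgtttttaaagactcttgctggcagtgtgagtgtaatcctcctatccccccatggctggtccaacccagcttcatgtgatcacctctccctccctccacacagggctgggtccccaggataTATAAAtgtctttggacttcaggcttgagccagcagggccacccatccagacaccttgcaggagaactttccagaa
The motifs were the E-box CACGTG of the clock activators (in 7.15% of 32851 promoters of the same length), the D-box TTATGTAA (0.938%), the cyclic AMP element TGACGTCA (1.79%), the full glucocorticoid element, AGAACA and TGTTCT with 3 bases of any kind between them (0.00913%), its shorter core AGAACA, which lies within the full one (19%), the core GCGTG of the aryl hydrocarbon receptor element (32.4%), AGGTCA of the ROR element (16.3%) and the TATA box TATAAA (13.6%). No letters of the Angptl7 and Aqp1 windows matched any of the 8. The Myoc window held TATAAA at position -26, counted from the RefSeq start, and the Timp3 window held GCGTG at position -69. In the windows not printed, Ltbp2 held GCGTG at position -37 and Cyp1b1 held its complement CACGC at position -76. A match or its absence describes these letters only.

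Gene positions are from GENCODE M21 on GRCm38, while the build behind the counts was not given in the sources used here. Per kilobase of exon, over the 6 libraries of each genotype, Aqp1 had the highest level with 118 ± 24.2 CPM per kb in cKO and 120 ± 24.3 in WT (SD over the 6 times, which includes the change with time). Timp3 followed with 73.0 ± 7.70 in cKO and 75.7 ± 13.2 in WT, and then Mgp with 57.8 ± 15.2 in cKO and 51.1 ± 23.7 in WT. Myoc had 22.2 ± 9.58 CPM per kb in cKO and 29.7 ± 15.8 in WT, and Angptl7 had 12.9 ± 9.87 in cKO and 18.6 ± 11.6 in WT. Cyp1b1 was low, with 2.78 ± 0.19 in cKO and 3.10 ± 0.34 in WT, and Ltbp2 lowest, with 2.47 ± 0.36 in cKO and 2.37 ± 0.46 in WT. The order was the same in both genotypes. Timp3 and Mgp differed by about the SD of Mgp, and Myoc and Angptl7 by less than the larger of their SDs.

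Angptl7 encodes a secreted angiopoietin-like protein of the trabecular meshwork and corneal stroma, and human carriers of inactivating variants have lower eye pressure. It lies on chromosome 4 (148495183 to 148500460, minus strand), within the span of Mtor on the other strand. No exons overlap, and Mtor had 927 to 1060 counts per library. At CT2, CT6, CT10, CT14, CT18 and CT22 Angptl7 had 11.0, 12.6, 14.2, 65.8, 38.3 and 25.1 CPM in cKO, against 11.9, 24.4, 31.2, 51.0, 83.8 and 37.9 CPM in WT. Both genotypes were lowest at CT2, and the highest library was that of CT14 in cKO and of CT18 in WT. The highest level was 6.00 times the lowest in cKO and 7.05 times the lowest in WT, over raw counts of 114 to 702 in cKO and 124 to 880 in WT. Among these 7 genes it varied most with time. In bulk RNA of this kind, fewer cells of a type and less RNA per cell cannot be told apart.

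A curve with a period of 24 h, common to both genotypes, was fitted to each gene. Its amplitude is the distance between mean and peak on the log2 scale, with the SE implied by the F statistic. Angptl7 had an amplitude of 1.18 ± 0.13 (SE, 12 libraries), a peak at CT16.2 and a peak 5.15 times the trough (edgeR's quasi-likelihood test, adjusted p = 0.000200 over 15134 genes). The amplitude was larger in 0.0463% of the genes tested, and the median amplitude of all genes was 0.08. Of all genes tested, 3.46% passed this test, and 4 of the 7 did: Angptl7, Aqp1, Timp3 and Mgp. With the 6 times as separate groups and no curve assumed, 1.93% of all genes passed and 2 of the 7 did, Angptl7 (adjusted p = 0.000559) and Aqp1 (adjusted p = 0.000749).

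Fitted within each genotype, Angptl7 had an amplitude of 1.29 ± 0.20 and a peak at CT16.1 in cKO (edgeR adjusted p = 0.0424), and 1.09 ± 0.18 and CT16.4 in WT (edgeR adjusted p = 0.0360). It was the only gene of the 7 past either of these edgeR tests, where 0.152% of all genes passed in cKO and 0.363% in WT. Other tools gave other calls: DESeq2 gave Angptl7 an adjusted p of 0.0761 in WT and none in cKO, and limma-trend gave it 0.0520 in cKO and 0.0499 in WT. Each curve describes 6 libraries, but both were fitted together over all 12 libraries with a shared spread. With each genotype fitted alone, Angptl7 kept both calls (edgeR adjusted p of 0.00187 in cKO and 0.0437 in WT). The cKO call was lost without the cKO library of CT2, CT6, CT14 or CT22 (edgeR adjusted p of 0.182, 0.143, 0.182 and 0.113) and without the WT library of CT10 (0.0753). The WT call was lost without the WT library of CT10, CT18 or CT22 (edgeR adjusted p of 0.0833, 0.276 and 0.0545) and without the cKO library of CT2, CT6 or CT22 (0.0653, 0.0624 and 0.0659). The call of the shared curve held throughout: its adjusted p was 0.000266 without the cKO library of CT14 and 0.00134 without the WT library of CT18. The curves of the genotypes differed by 0.23 ± 0.28 on the log2 scale (edgeR). None of the 7 genes passed this test of a difference, which 0.0132% of all genes passed, and none had an unadjusted p below 0.05.

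Between genotypes, Angptl7 was lower in cKO at 5 of 6 times. The cKO level was 0.46 of the WT level at CT10 and CT18, 0.51 of it at CT6, 0.66 of it at CT22 and 0.92 of it at CT2, and it was 1.29 times the WT level at CT14. The fitted log2 difference, cKO minus WT, was -0.57 (95% interval -0.91 to -0.23; edgeR, unadjusted p = 0.00256, adjusted p = 0.473). It ranked 82 by p among 15134 genes and did not pass the test. None of the 7 genes passed, against 0.139% of all genes, and 1 of 7, Angptl7, had an unadjusted p below 0.05. For scale, Cyp1b1, with an unadjusted p of 0.0518 (edgeR), ranked 914 among the 15134 genes. The call of Angptl7 turned on 1 time. Without both libraries of CT14 its difference was -0.85 with an adjusted p of 0.00121, and without both libraries of CT18 it was -0.40 with an adjusted p of 0.619. Without the WT library of CT18 alone, with time fitted as a curve, it was -0.47 (edgeR adjusted p = 0.766), and the same fit gave -0.15 for Myoc.

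**Figure D1:**
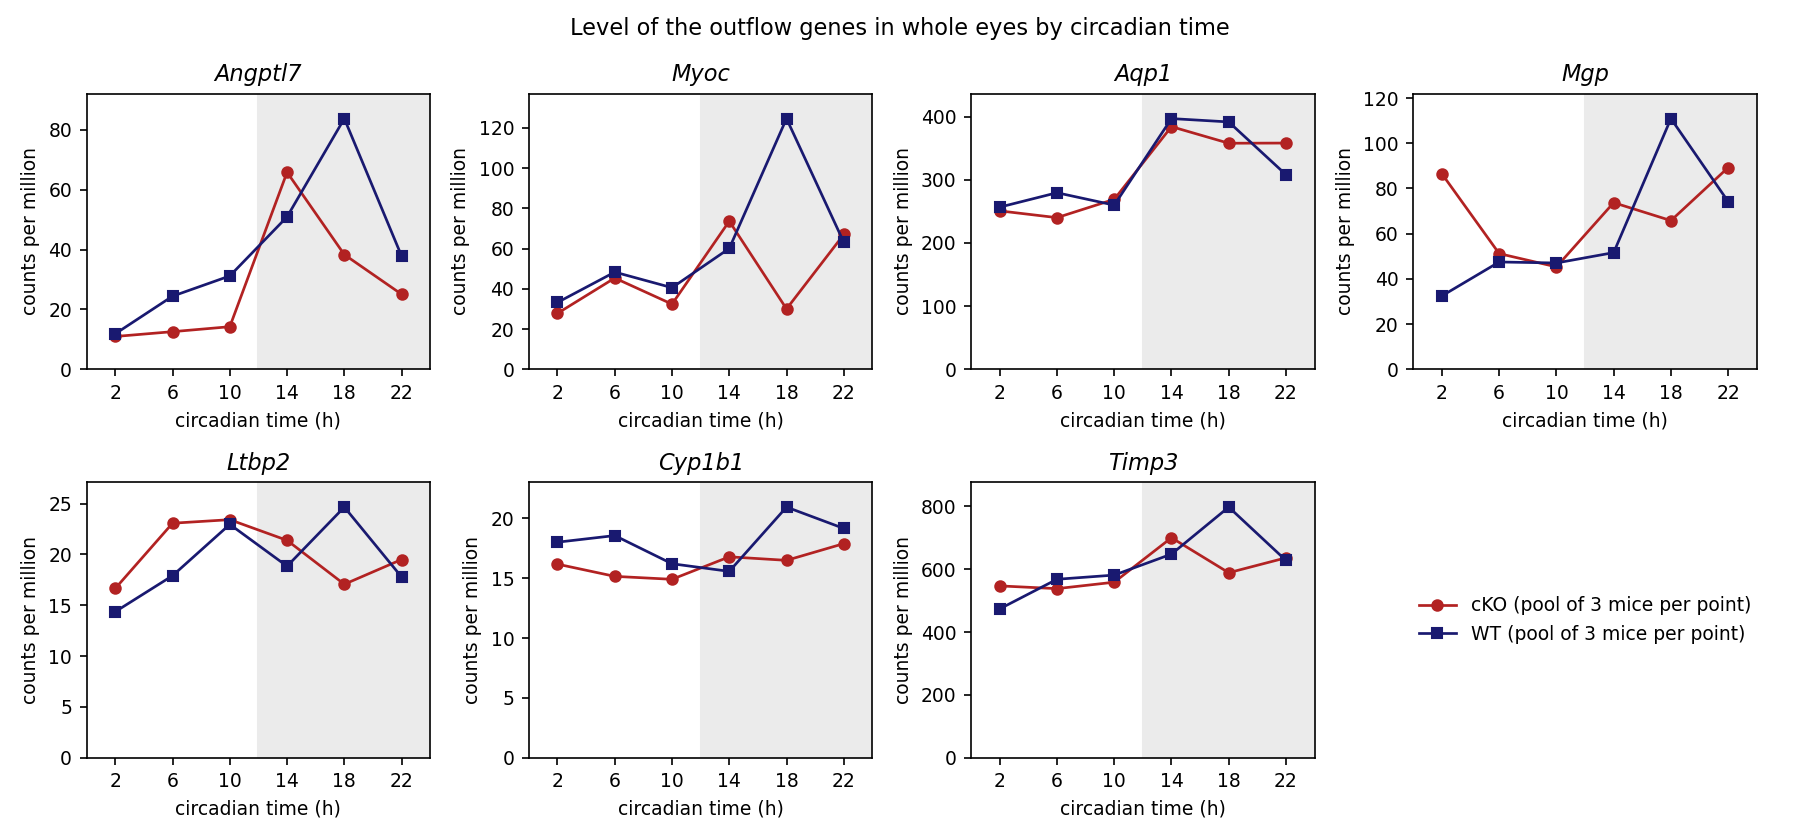
Level of each of the 7 genes in CPM (y axis, starting at 0) against circadian time in hours (x axis), with red circles for cKO and dark squares for WT; each point is 1 library of pooled RNA of 3 mice, and the subjective night is shaded. Angptl7 was lowest at CT2 in both genotypes (11.0 CPM in cKO and 11.9 CPM in WT), and the WT library of CT18 was the highest of its genotype for Angptl7, Myoc, Mgp, Ltbp2, Cyp1b1 and Timp3.

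Myoc encodes myocilin, a secreted olfactomedin-domain protein of the meshwork whose variants cause juvenile and adult open-angle glaucoma in humans and which glucocorticoids induce in human meshwork cells. It lies on chromosome 1 (162639155 to 162649693, plus strand) and its exons overlap those of Myocos on the other strand. Whether counting used the strand is not given, so reads of overlapping genes on opposite strands cannot be told apart. Myoc had 27.8, 45.4, 32.4, 73.6, 30.0 and 67.0 CPM at the 6 times in cKO, against 33.2, 48.3, 40.6, 60.1, 125 and 63.2 CPM in WT. The WT library of CT18 was far above the other libraries, and the cKO library of the same time was among the lowest, at 0.24 of the WT level. At CT14 and CT22 Myoc was 1.23 and 1.06 times as high in cKO as in WT, and at the other 4 times it was lower in cKO. The fitted log2 difference was -0.38 (95% interval -0.81 to 0.06; edgeR, adjusted p = 0.884).

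Over the shared 24 h curve Myoc had an amplitude of 0.54 ± 0.16 with a peak at CT17.5 and did not pass the test (edgeR, adjusted p = 0.137). The amplitude was 0.29 ± 0.24 in cKO and 0.73 ± 0.21 in WT, and neither curve passed. The WT amplitude was 0.40 without the WT library of CT18. These values turned on the libraries of CT18. Without both, the log2 difference between genotypes was -0.03. Myoc then passed the test of time as separate groups (edgeR adjusted p = 8.08e-05, against 0.211 with all libraries). With only 1 library of CT18 left out, that test fits the other exactly, so only the size is given. The fitted log2 range over the times was 2.01 without the cKO library and 1.14 without the WT library, against 1.27 with all. Without the cKO library of CT18 alone, Myoc passed the test of the shared curve (edgeR adjusted p = 0.0113) with an amplitude of 0.72. Without the WT library of CT18 alone the amplitude was 0.33 (adjusted p = 0.449).

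Aqp1 encodes a water channel of the ciliary epithelium, corneal endothelium, meshwork cells and Schlemm's canal endothelium, as well as of red blood cells. Its gene is on chromosome 6 (55336432 to 55348555, plus strand). It had 251, 240, 269, 384, 358 and 358 CPM at the 6 times in cKO, against 257, 280, 260, 397, 392 and 308 CPM in WT. The 6 libraries of CT14 to CT22, at 308 to 397 CPM, all lay above the 6 of CT2 to CT10, at 240 to 280 CPM. Of all genes tested, 1.22% had this complete separation of night above day, and of the 7 genes Aqp1 and Timp3 had it. The night mean of 366 ± 32.9 CPM was 1.41 times the day mean of 259 ± 13.8 CPM (SD, n = 6 each).

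The shared curve of Aqp1 had an amplitude of 0.35 ± 0.04, a peak at CT17.0 and a peak 1.61 times the trough (edgeR, adjusted p = 0.000545). Within genotypes the amplitude was 0.37 ± 0.06 with a peak at CT17.4 in cKO (edgeR, adjusted p = 0.0671) and 0.33 ± 0.06 with a peak at CT16.6 in WT (adjusted p = 0.0619). The cKO curve passed without the WT library of CT2, CT6, CT10 or CT14 (edgeR adjusted p of 0.0454, 0.0346, 0.0192 and 0.0466), and the WT curve without the WT library of CT10 (0.0347). In DESeq2 both curves of Aqp1 passed (adjusted p of 2.99e-05 in cKO and 0.000388 in WT), as they did in edgeR without the filter on low counts (0.0188 in cKO and 0.0293 in WT). With each genotype fitted alone, the cKO curve of Aqp1 had an adjusted p of 0.00487 and the WT curve one of 0.152 (edgeR). With any 1 cKO library left out, the cKO curve did not pass (edgeR adjusted p of 0.0757 to 0.326). Over 23 alternatives, the adjusted p was below 0.05 in 7 for the cKO curve and in 3 for the WT curve. Between genotypes the fitted log2 difference was -0.03 (95% interval -0.13 to 0.08; edgeR, adjusted p = 0.964), and Aqp1 was lower in cKO at 4 of 6 times. The summed level of 6 red blood cell markers ran between 170 and 295 CPM in cKO and between 231 and 565 CPM in WT. It was lowest in the cKO library of CT18 and highest in the WT library of CT18, where Aqp1 had 358 CPM in cKO and 392 CPM in WT. Without the WT library of CT18, the shared curve of Aqp1 had an amplitude of 0.35 and an adjusted p of 0.00231.

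Timp3 encodes an inhibitor of matrix metalloproteinases that binds to the matrix, abundant in Bruch's membrane under the pigment epithelium and present in the meshwork, and human variants cause Sorsby fundus dystrophy. It lies on chromosome 10 (86300372 to 86349506, plus strand) within Syn3 on the other strand, with 1 overlapping pair of exons, and Syn3 had 31 to 52 counts per library. Timp3 had 547, 538, 559, 700, 589 and 636 CPM at the 6 times in cKO, against 474, 568, 581, 648, 798 and 628 CPM in WT. The night libraries had 589 to 798 CPM and the day libraries 474 to 581 CPM, again without overlap, and the night mean was 1.22 times the day mean. Timp3 was higher in cKO at 3 of 6 times, and its fitted log2 difference was -0.04 (95% interval -0.17 to 0.09; edgeR, adjusted p = 0.957).

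The shared curve of Timp3 had an amplitude of 0.21 ± 0.04 and a peak at CT16.7 (edgeR, adjusted p = 0.0284). This call was lost without the cKO library of CT2, CT6, CT10 or CT14 (edgeR adjusted p of 0.0510, 0.0606, 0.0584 and 0.0739) and without the WT library of CT2, CT10 or CT18 (0.0523, 0.0561 and 0.108). It was also lost without both libraries of any single time (0.0535 to 0.0926). Over 23 alternatives the adjusted p was below 0.05 in 10. The amplitude was 0.17 without the WT library of CT18 and 0.26 without the cKO library of CT18, where the adjusted p was 0.00886. With the times as separate groups Timp3 had an adjusted p of 0.145, which was 0.0407 without both libraries of CT18 (edgeR). Its fitted log2 range over the times was 0.44, and 0.67 without the cKO library of CT18 alone.

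Mgp encodes matrix Gla protein, a vitamin K-dependent inhibitor of calcification that is among the most abundant transcripts of the human trabecular meshwork. It lies on chromosome 6 (136872435 to 136875823, minus strand). Mgp had 86.5, 51.2, 45.3, 73.7, 65.8 and 89.3 CPM at the 6 times in cKO, against 32.5, 47.5, 47.0, 51.6, 111 and 74.2 CPM in WT. The genotypes were close at CT6 and CT10 and far apart at CT2, where cKO had 2.66 times the WT level, and at CT18, where it had 0.59 of it. The night and day libraries overlapped, with 51.6 to 111 CPM at night and 32.5 to 86.5 CPM by day. The fitted log2 difference between genotypes was 0.23 (95% interval -0.14 to 0.59; edgeR, adjusted p = 0.928), and it was 0.01 without both libraries of CT2. Without the WT library of CT18, with time fitted as a curve, it was 0.37 (edgeR, adjusted p = 0.652).

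The shared curve of Mgp had an amplitude of 0.49 ± 0.11 and a peak at CT19.7, the latest of the 4 genes that passed, with an adjusted p of 0.0486 (edgeR), just inside the threshold. The fitted peaks lay at CT21.6 in cKO and CT18.1 in WT. The amplitude of Mgp lay between 0.36 and 0.59 over 23 alternatives, and the adjusted p was below 0.05 in 6 of them. The call held without the cKO library of CT2 or CT18 (edgeR adjusted p of 0.0275 and 0.0189) or the WT library of CT2 (0.00844). It was lost without the cKO library of CT6, CT10, CT14 or CT22 (0.106, 0.139, 0.0684 and 0.0981) or the WT library of CT6, CT10, CT14, CT18 or CT22 (0.0757, 0.0984, 0.0514, 0.145 and 0.0790). With the times as separate groups Mgp had an adjusted p of 0.290 (edgeR). Its fitted log2 range over the times was 0.96, against 1.44 without the cKO library of CT2 and 1.48 without that of CT18.

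Ltbp2 encodes a latent TGF-β binding protein of the elastic fibres in the meshwork and zonules, and its loss causes congenital glaucoma and lens displacement in humans. Ltbp2 is on chromosome 12 (84783212 to 84876532, minus strand) and its exons overlap the antisense gene D030025P21Rik, which had 0 to 2 counts per library. Ltbp2 had 16.7, 23.1, 23.4, 21.4, 17.1 and 19.5 CPM at the 6 times in cKO, against 14.4, 17.9, 23.0, 18.8, 24.7 and 17.8 CPM in WT. It was higher in cKO at 5 of 6 times, all but CT18, with a fitted log2 difference of 0.06 (95% interval -0.14 to 0.26; edgeR, adjusted p = 0.957), which was 0.15 without the WT library of CT18 and with time fitted as a curve. Its night mean was 19.9 ± 2.78 CPM and its day mean 19.7 ± 3.91 CPM (SD, n = 6 each), and the shared curve did not pass (edgeR, adjusted p = 0.249). With the times as separate groups Ltbp2 did not pass (edgeR adjusted p = 0.374). Its fitted log2 range over the times was 0.58, and 0.76 without the cKO library of CT18.

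Cyp1b1 encodes a cytochrome P450 enzyme whose loss is a frequent cause of primary congenital glaucoma in humans. The gene is on chromosome 17 (79701537 to 79715061, minus strand). It had 16.2, 15.2, 14.9, 16.8, 16.5 and 17.9 CPM at the 6 times in cKO, against 18.0, 18.6, 16.2, 15.6, 20.9 and 19.2 CPM in WT. It was the steadiest of the 7 in cKO and in WT, with a highest level 1.20 times the lowest in cKO and 1.34 times the lowest in WT. Cyp1b1 was lower in cKO at 5 of 6 times, all but CT14, with a fitted log2 difference of -0.15 (95% interval -0.31 to 0.00; edgeR, unadjusted p = 0.0518, adjusted p = 0.848). Its raw counts ran between 156 and 189 in cKO and between 162 and 220 in WT. The shared curve did not pass (edgeR, adjusted p = 0.297).

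**Figure D2:**
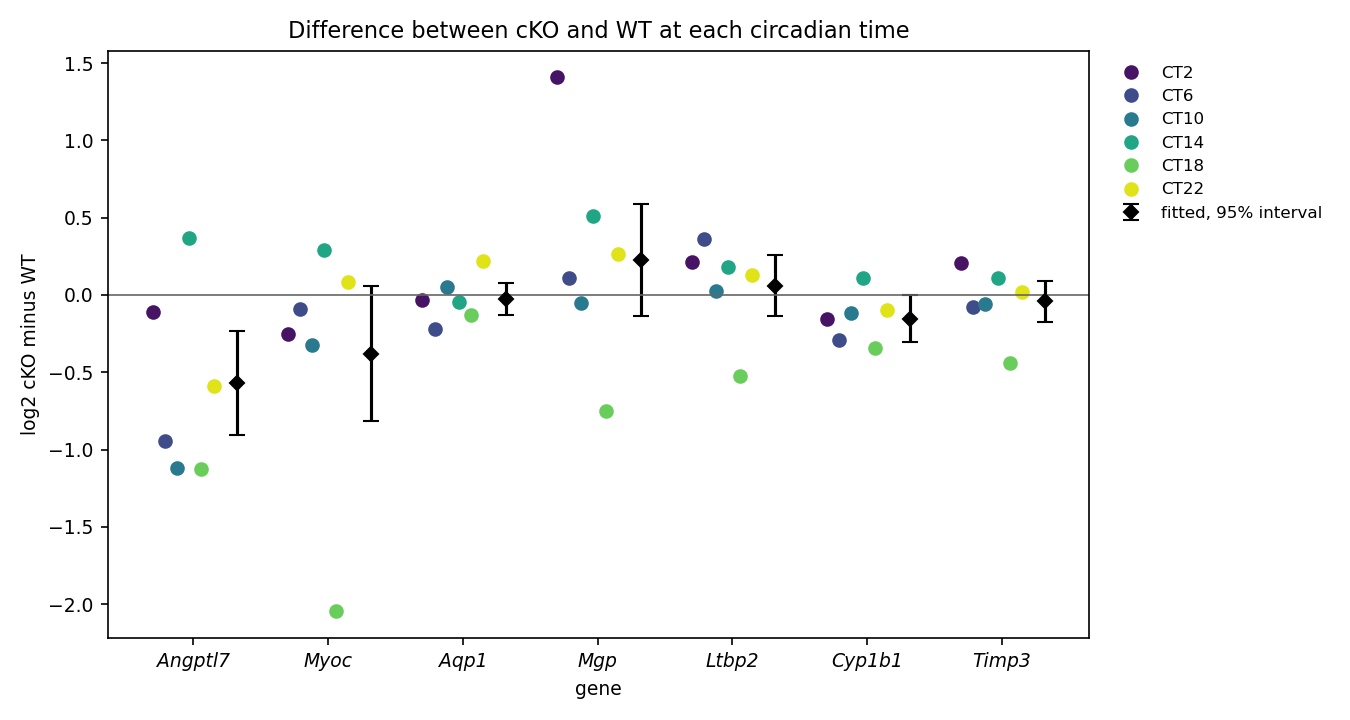
Log2 level in cKO minus WT (y axis) for each of the 7 genes (x axis); coloured points are the 6 circadian times, 1 pair of libraries each, and black diamonds with bars are the fitted difference with its 95% interval. The interval of Angptl7 lies below 0, at -0.91 to -0.23, and the lowest point is Myoc at CT18, -2.05.

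**Figure D3:**
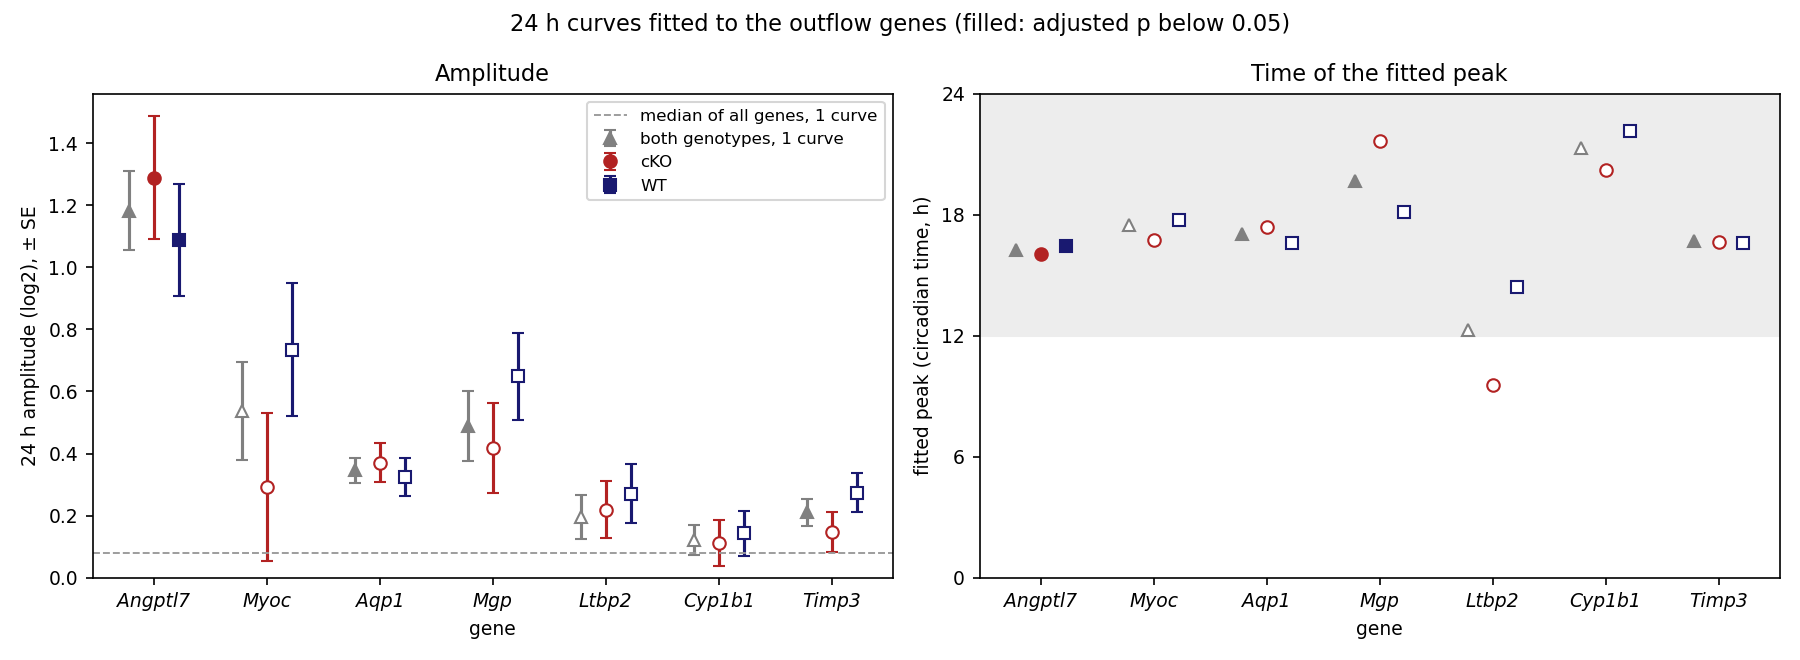
Amplitude of the fitted 24 h curve on the log2 scale with its SE (left y axis) and time of its peak in hours of circadian time (right y axis) for each gene (x axis); grey triangles are 1 curve for both genotypes, red circles cKO, dark squares WT, and filled symbols had an adjusted p below 0.05. The dashed line is the median amplitude of all genes tested, 0.08, and the shared curves of Angptl7, Timp3, Aqp1 and Mgp, the 4 that passed, peaked between CT16.2 and CT19.7.

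The levels of the 7 genes moved together to different degrees over the 12 libraries, which share the time of day as well as the tissue dissected. As a description, Pearson's r of log2 CPM was 0.90 between Angptl7 and Timp3, 0.87 between Angptl7 and Aqp1, 0.87 between Myoc and Timp3 and 0.83 between Aqp1 and Timp3, with Spearman's rho of 0.93, 0.88, 0.77 and 0.93. Without the WT library of CT18, r was 0.87, 0.84, 0.76 and 0.82 for the same pairs. Myoc and Aqp1 had an r of 0.67 (0.60 without that library). Ltbp2 followed these 4 genes less closely, with r of 0.14 to 0.53 (-0.04 to 0.36 without that library). Mgp had r of 0.49 to 0.75 with them (0.30 to 0.63 without that library), highest with Timp3. Cyp1b1 had r of 0.34 to 0.62 with the same 4 genes (0.07 to 0.35 without that library). With Ltbp2 its r was -0.13, and -0.58 without that library.

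Genes with the most similar profile were sought among 11288 others whose average log2 CPM was 3 or more. For Angptl7 they were Ak3, Edn3 and Fmo1 (r of 0.957, 0.955 and 0.955), which were also its nearest 3 without the WT library of CT18. Edn3 is a secreted endothelin and Fmo1 a flavin monooxygenase. For Aqp1 they were Nlgn2, Taf6 and Nr4a1 (0.985, 0.964 and 0.955), again the same 3 without that library, and Nr4a1 is an immediate early gene and nuclear receptor. For Timp3 they were Fbln5, Gab2 and Serpine2 (0.967, 0.962 and 0.955), of which the first encodes an elastic fibre protein and the last a secreted protease inhibitor. For Myoc they were Ednrb, an endothelin receptor, Fkbp9 and Ccnd2 (0.969, 0.934 and 0.934). Those of Mgp (Kctd10, Cdc37 and Mlana), Ltbp2 (Flna, Tnrc18 and Daam2) and Cyp1b1 (Pdk3, Ube2q2 and Casp6) had r of 0.871 to 0.918. By Spearman's rho, 2 of the 3 were also the nearest for Angptl7 and for Aqp1, 1 for Myoc, Mgp, Ltbp2 and Cyp1b1 and 0 for Timp3. By Pearson's r without the WT library of CT18, 1 of the 3 was still among the nearest for Mgp and for Myoc, 2 for Ltbp2 and for Timp3, and 0 for Cyp1b1.

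Tissue markers moved with several of the 7. The summed level of the 12 stroma, sclera and keratocyte markers ran between 2040 and 2774 CPM in cKO, highest at CT14, and between 2151 and 3265 CPM in WT, highest at CT18. These are the times at which Angptl7, Myoc and Timp3 were highest in each genotype. The mean centred log2 level of the list was 0.29 in cKO and -0.07 in WT at CT14, and -0.11 in cKO and 0.54 in WT at CT18. Its difference between genotypes had the same sign as that of Angptl7, Myoc, Timp3, Mgp, Ltbp2 and Cyp1b1 at both times. For Aqp1 the sign was the same only at CT18. At CT2 the list had -0.20 in cKO and -0.28 in WT. There Angptl7, Myoc, Aqp1 and Cyp1b1 were lower in cKO, and Mgp, Ltbp2 and Timp3 were higher. At CT6 the list had -0.19 in cKO and 0.23 in WT, while Mgp and Ltbp2 were higher in cKO and the other genes lower. At CT10 it had -0.36 in cKO and -0.10 in WT, while Aqp1 and Ltbp2 were higher in cKO and the other genes lower. At CT22 it had 0.12 in cKO and 0.11 in WT, while Angptl7 and Cyp1b1 were lower in cKO and the other genes higher. Over the 12 libraries the r of the list was 0.88 with Myoc, 0.84 with Timp3, 0.78 with Angptl7, 0.76 with Cyp1b1, 0.65 with Mgp, 0.64 with Aqp1 and 0.30 with Ltbp2. Without the WT library of CT18 these were 0.78, 0.72, 0.69, 0.59, 0.47, 0.55 and 0.03. Ltbp2 moved more with other lists, with r of 0.81 for vessels and pericytes and 0.73 for ciliary body and iris (0.77 and 0.68 without that library). Angptl7 had an r of 0.74 with the Mueller glia markers, and Timp3 one of 0.71 with those of the pigment epithelium. The 8 rod markers went the other way, with r of -0.91 for Angptl7 and -0.83 for Timp3, over sums of 39002 to 50796 CPM in cKO and 39632 to 46982 CPM in WT.

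All 12 stroma markers had a fitted difference below 0, cKO minus WT, with a median of -0.10, and 0 passed the genotype test (edgeR; 4 had an unadjusted p below 0.05). None of the 12 passed the test of the shared curve either. Their amplitudes ran between 0.04 for Thy1 and 0.47 for Kera, with a median of 0.17. The 12 lens markers all had a fitted difference above 0, with a median of 0.15 (0 passed in edgeR; 9 had an unadjusted p below 0.05), and 10 of 11 extraocular muscle markers lay below 0, with a median of -0.08. For scale, the median log2 difference of all genes tested was -0.00016, and 0.139% of them passed the genotype test. An unadjusted p of 0.0518 (edgeR) ranked 914 among the 15134 genes. Markers of 1 tissue were measured in the same libraries, so their counts are not independent. The part of these tissues in the levels of the 7 genes was not tested.

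**Figure D4:**
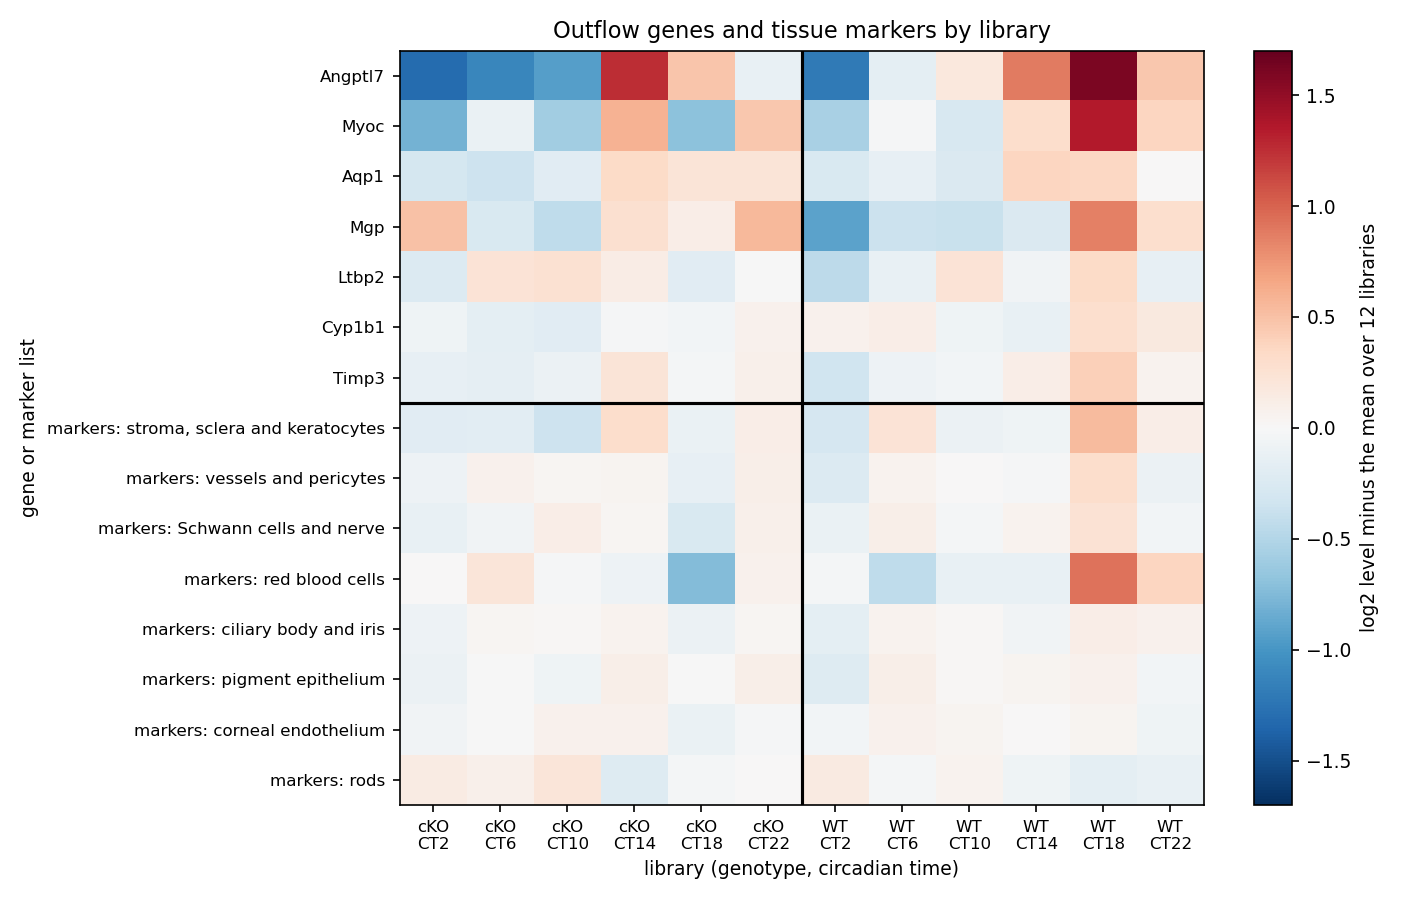
Log2 level minus the mean over the 12 libraries (colour, blue low and red high) for the 7 genes (upper rows) and for the mean of 8 lists of tissue markers (lower rows), by library (x axis; cKO on the left, WT on the right, by circadian time). The WT library of CT18 was high for Angptl7 and Myoc and for the markers of stroma (0.54) and red blood cells (0.93), and the cKO library of CT18 was low for red blood cells (-0.74).

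Most genes near the 7 in function did not pass the tests, which over all genes 3.46% passed for the shared curve, 1.93% for separate times and 0.139% for genotype. Of 31 other glaucoma and outflow disease genes tested, 0 passed the genotype test (edgeR; 1 had an unadjusted p below 0.05) and 1 passed that of the shared curve, Col4a1, a collagen of basement membranes that peaked by day at CT9.6 (amplitude 0.17 ± 0.04). It had 274 CPM in cKO and 236 CPM in WT, and its genotype difference had an adjusted p of 0.0951 (edgeR). Of the 12 genes of Schlemm's canal and the angiopoietin receptor TEK, 1 passed, the VEGF receptor gene Kdr, at CT6.1. Of 25 genes of outflow matrix and TGF-β signalling, 5 passed: Col4a1, which both lists hold, and 4 that peaked at night. Among these were Thbs1 (thrombospondin, an activator of TGF-β; amplitude 0.65 ± 0.08, CT16.9), Ctgf (a matricellular growth factor; 0.71 ± 0.10, CT15.8) and Fn1 (fibronectin; 0.21 ± 0.04, CT16.6). Thbs1 had 68.5 to 144 CPM in cKO and 57.1 to 185 CPM in WT.

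Among 13 other TIMPs, metalloproteinases and their partners 2 passed the shared curve, the protease gene Adamts1 (CT20.7) and Kdr, whose receptor TIMP3 binds. Timp1 and Timp2 did not, with 1.71 and 246 CPM in cKO and 1.36 and 259 CPM in WT. Of the 7 other aquaporins tested 0 passed, and the most abundant, Mip, the water channel of lens fibres, had 1304 CPM in cKO and 1164 CPM in WT. None of the 4 other angiopoietin-like genes passed, nor any of 9 olfactomedin-domain genes or of 10 genes of vitamin K-dependent proteins and calcification. By the test of separate times 1 of those 10 passed, Spp1 (osteopontin; adjusted p = 0.00757). Of 5 genes of the aryl hydrocarbon receptor pathway, which induces Cyp1b1, the repressor gene Ahrr passed the shared curve (amplitude 0.31 ± 0.05, CT7.2), while the fitted peak of Cyp1b1, which did not pass, lay at CT21.3.

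Of 14 glucocorticoid-induced genes, 5 passed the shared curve (3.46% of all genes): Tsc22d3, Per1, Sgk1 and Mt2, with peaks at CT15.3, CT13.3, CT17.1 and CT21.0, and Cdkn1a at CT2.9. Of these 14, Fam107a passed the genotype test (0.139% of all genes) and was lower in cKO (32.8 CPM in cKO and 40.8 CPM in WT; log2 difference -0.31, edgeR adjusted p = 0.0335). The median log2 difference of the 14 was -0.08, against 0.00 for all genes tested, and 11 of the 14 were below 0. Myoc, lower in cKO at 4 of 6 times, did not pass.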

How the data were processed

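RNA sequencing counts were taken from whole eyes of 12 pools, 6 per genotype. The authors deposited whole-number counts per gene symbol, which they call raw data. Which aligner, counter, build, annotation, strand setting or subsampling was used was not given in the sources used here. Of 32544 entries, 27 whose names had turned into dates were left out, with a median of 0.158% of the counts. Totals of 10466253 to 10686868 counts per library were scaled by TMM in edgeR 4.0.16 (R 4.3.3), and 15134 genes passed filterByExpr by genotype (minimum count 10, minimum total 15). CPM use TMM library sizes, and log2 CPM a prior count of 2.

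Tests were edgeR's quasi-likelihood F tests over all 12 libraries, adjusted by Benjamini-Hochberg over all genes, threshold 0.05. They were genotype beside the 6 times (5 residual degrees of freedom), a shared 24 h cosine and sine (8), time as a factor, a curve within each genotype (6) and the difference of the curves. P-values rest on the scatter of the pools about each fitted model, which edgeR moderates over all genes. In the genotype test this scatter holds the change of the genotype difference over the times. For the curves it also holds any departure from a 24 h cosine. Named were all 7 genes, Nr3c1, for each list of related genes those past a test or else the most abundant, and the 3 genes most alike each of the 7. Timp1 was picked after its value was seen. Alternatives were DESeq2 1.42.0, its size factors, limma-trend (limma 3.58.1), no filter, an added 12 h term, dropping time or fitting it as a curve in the genotype test, each genotype fitted alone, and each time or library left out. Leaving out the WT library of CT18 in the genotype test, the night and day split and the marker levels were added after the data were seen. The code was tested on simulated data. The genes and lists were chosen with earlier results of these data known, so their choice is not independent of them. The values of 1 gene of the matrix list are not reported here.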

Additional observations from a re-analysis of the deposited data

Results flagged for a closer look

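Of the 14 sets of 6 libraries (7 genes in each genotype), 1 held a library far from the others. Myoc had 125 CPM (124.615) in the WT library of CT18, and the gap to the next of the 6 was 0.673 of their whole range, above Dixon's 95% critical value for 6 samples. Where 6 samples come from 1 normal population, chance flags about 1 in 20 such sets. The 6 libraries of a set differ in circadian time, so this rate need not hold here. Red blood cell and stroma markers were also highest in that library among the 6 of WT, at 565 and 3265 CPM summed. Their part in the level of Myoc was not tested.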

How the results depend on the processing

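Angptl7 and Aqp1 passed the tests of the shared curve and of separate times in all of their alternatives (23 and 22). Without the filter on low counts the genes past a test numbered 51 for genotype, 553 for separate times, 52 for the cKO curve, 108 for the WT curve and 7 for their difference, and of the 7 members 5 passed for separate times, 2 for the cKO curve and 2 for the WT curve. DESeq2 gave 68 genes for the cKO curve, 104 for the WT curve and 5 for their difference, limma-trend 0 members for the cKO curve, and the genotype test without time 3 genes. Fitted alone, cKO libraries gave 103 genes and 2 members, and WT libraries 23 genes.

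With a time or library left out, genes past a test numbered 5 to 26 for genotype, 217 to 475 for the shared curve, 99 to 429 for separate times, 3 to 42 for the cKO curve, 13 to 109 for the WT curve and 0 to 6 for the difference. Members past a test numbered 0 to 1, 2 to 5, 2 to 6, 0 to 2, 0 to 2 and 0 in the same order. The log2 difference cKO minus WT then ran between -0.077 and 0.010 for Aqp1, -0.0024 and 0.18 for Ltbp2, and -0.089 and 0.041 for Timp3, which was 0.0081 without the WT library of CT18. The cKO amplitude of Myoc ran between 0.18 and 0.68, and the size of the curve difference between 0.037 and 0.68 for Angptl7, 0.026 and 0.21 for Aqp1, 0.014 and 0.19 for Cyp1b1, 0.075 and 0.98 for Myoc and 0.051 and 0.29 for Timp3. The cause of these shifts was not tested. In the test of separate times, leaving out 1 library leaves the other library of its time fitted exactly. The genotype test paired the libraries by time, and the labels give no replicate numbers for any other block.

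With 1 pool per genotype and time, the genotypes cannot be compared at a single time over replicates, and 1 cycle cannot tell a daily rhythm from a single rise. Intervals and p-values rest on the scatter of single pools about each fitted model, and there are no like pools to compare. They do not cover the spread between mice.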
